A study of Homo sapiens with 16 samples.

Results

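The 8 genes described here encode the subunits of the CCT chaperonin (also TRiC): TCP1, CCT2, CCT3, CCT4, CCT5, CCT6A, CCT7 and CCT8. They were selected by symbol, with their knockdown-minus-control differences in both lines already known, from the 28277 gene symbols in each of 2 deposited expression tables. All 8 were found in both tables and all 8 passed the minimum mean of 3 on the log2 scale. Because that contrast chose them, the differences of these 8 genes are given as a description, with standard errors and with no test.

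The values are regularised log (rlog) expression values of poly(A) RNA, on the log2 scale, from 2 established human multiple myeloma lines, INA6 and JJN3. The groups are INA6 with KANSL2 knockdown, INA6 with a nontargeting sgRNA control (nt), JJN3 with KANSL2 knockdown and JJN3 with the same kind of control, 3 libraries each and 12 in all. All were labelled untreated, and every group carried CRISPR interference, in which an inactive Cas9 (dCas9) fused to a repressor domain is guided to a gene's start. The KANSL2 protein belongs to the NSL complex, in which KAT8 acetylates histone H4. The sources used here give neither the number of guides nor whether the lines were clones or the replicates separate cultures, so a p-value reflects the scatter of these libraries alone, and that scatter may be technical. The question is how the genes of this folding machine stood when KANSL2 was repressed. Depth per library is unknown, and 4 JJN3 chromatin accessibility libraries were not analysed here.

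CCT is a cytosolic folding machine made of a pair of stacked rings, each holding a copy of every subunit, which closes over its client in a cycle driven by ATP. Actin and tubulin are its classical clients, and WD40 proteins such as CDC20 are others. Prefoldin and the HSP70 system hand clients to it, and phosducin-like proteins act as its cofactors. In yeast, the counterparts of CCT2, CCT4 and CCT5 bind ATP tightly and those of CCT3, CCT6A and CCT8 weakly.

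KANSL2 itself was lower in the knockdown libraries of both lines, at 76.4% of its control level in INA6 and 43.1% in JJN3, with no overlap of the groups. All 8 plasma cell markers passed the minimum in both lines, and 0 of 4 stromal markers did. Of the other markers, 1 of 4 B cell genes passed in each line, 2 of 4 T and NK cell genes in INA6 and 1 of 4 in JJN3, and 2 of 4 myeloid genes in each. The summed plasma cell markers stood at 94.5 to 95.3 in knockdown against 96.9 to 97.3 in control INA6 libraries, and at 93.5 to 93.9 in knockdown against 92.3 to 92.7 in control JJN3 libraries (log2 values summed over 8 genes). The summed B cell markers stood at 12.0 to 12.1 in knockdown against 12.1 to 12.2 in control INA6 libraries, and at 2.03 to 2.14 in knockdown against 1.41 to 1.49 in control JJN3 libraries, with no overlap in either line (log2 values summed over 4 genes). The stromal sums lay apart in INA6, at 0.212 to 0.236 with knockdown against 0.257 to 0.312 in controls, and the T and NK cell and myeloid sums overlapped between groups in both lines. The part of these markers in the results below was not tested. EIF4A1, a gene that every cell uses, was listed at 0 in all libraries, so a gene with a low value cannot be called silent.

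Every CCT gene was higher with knockdown in both lines. In INA6 the 8 differences ran between 0.22 and 0.42 with a median of 0.37 on the log2 scale, which is 28.8% above control, while the median over all 12511 tested genes was 0.0009. In JJN3 they ran between 0.15 and 0.38 with a median of 0.29, or 22.6% above control, against a median of 0.001 over 12282 genes. For all 8 genes in each line, the 3 knockdown libraries lay above the 3 control libraries. The same separation held for 27.7% of all tested genes in INA6 and 28.4% in JJN3, and nothing is read from the members' count, since this contrast chose them. In bulk libraries more expressing cells and more RNA per cell cannot be told apart, and an rlog value is relative within its table, not an amount of RNA.

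The start regions of these genes are shown first because the genes stood higher together. RefSeq (GRCh38.p14) windows of 250 bases before to 50 after an annotated start were at hand for 7 of the 8 genes, 9 windows in all, with CCT6A the gene without one. Printed are the 4 windows that hold both a GC box and a CCAAT box, each 5′ to 3′ on its gene's strand. Capitals mark every match, on either strand, to one of the 7 motifs searched. These were the E-box, written CACGTG, the core letters CCGGAA of sites for ETS factors, the GC box with letters GGGCGG, the box named after its letters CCAAT, the NRF1 part with letters GCATGCGC, the YY1 part with letters AAGATGGC, and the heat shock element part with letters GAANNTTC. No matches of different motifs overlap in these windows. The TCP1 window is chr6:159789553-159789852 on the minus strand, the CCT2 window chr12:69585209-69585508 on the plus strand, the CCT3 window chr1:156338243-156338542 on the minus strand and the CCT8 window chr21:29073599-29073898 on the minus strand.
TCP1: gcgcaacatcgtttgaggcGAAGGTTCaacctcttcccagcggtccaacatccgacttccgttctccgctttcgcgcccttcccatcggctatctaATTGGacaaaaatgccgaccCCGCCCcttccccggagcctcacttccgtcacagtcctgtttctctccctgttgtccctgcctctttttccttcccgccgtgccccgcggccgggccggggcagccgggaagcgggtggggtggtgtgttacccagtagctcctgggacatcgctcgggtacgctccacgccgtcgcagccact
CCT2: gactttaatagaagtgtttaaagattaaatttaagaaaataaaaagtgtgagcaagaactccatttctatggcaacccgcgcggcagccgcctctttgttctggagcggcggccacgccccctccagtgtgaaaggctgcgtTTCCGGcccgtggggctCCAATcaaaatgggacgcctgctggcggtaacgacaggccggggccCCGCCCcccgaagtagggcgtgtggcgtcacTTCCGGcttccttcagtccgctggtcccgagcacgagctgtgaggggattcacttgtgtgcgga
CCT3: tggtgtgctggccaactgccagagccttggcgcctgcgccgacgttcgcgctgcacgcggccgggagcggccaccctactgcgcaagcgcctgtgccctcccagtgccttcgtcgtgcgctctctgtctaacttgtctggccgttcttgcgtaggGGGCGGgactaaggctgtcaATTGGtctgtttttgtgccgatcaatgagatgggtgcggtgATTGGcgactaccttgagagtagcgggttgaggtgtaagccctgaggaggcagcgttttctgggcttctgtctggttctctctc
CCT8: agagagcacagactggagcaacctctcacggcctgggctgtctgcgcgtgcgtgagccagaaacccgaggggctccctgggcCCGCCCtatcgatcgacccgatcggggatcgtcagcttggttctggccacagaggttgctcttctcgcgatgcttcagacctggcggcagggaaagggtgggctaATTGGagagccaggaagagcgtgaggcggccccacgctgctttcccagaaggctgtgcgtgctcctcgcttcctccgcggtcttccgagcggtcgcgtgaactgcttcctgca

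A GC box, the letters read by SP1-type factors, was found in 6 of the 9 member windows, those of 5 genes (TCP1, CCT2, CCT3, CCT7 and CCT8). Of all 35116 RefSeq windows 45.0% hold it. A CCAAT box, read by NF-Y, was found in 4 of the 9 member windows, those printed above, against 34.6% of all windows. The ETS letters were in 2 of the 9 member windows, of CCT2 and CCT5, with 17.2% of all windows holding them. The CCT5 window (chr5:10250287-10250586) lies wholly inside the gene, at an internal annotated start and not at its first base. The heat shock element part was in a window of TCP1 (positions −231 to −224 from the start) and in the second CCT2 window, against 6.77% of all windows. No member window held the E-box read by MYC, which 7.26% of all windows hold, nor the NRF1 part (3.05%) or the YY1 part (2.89%). The CCT4 windows held none of the 7 motifs. A match is only a run of letters, and its absence says nothing about binding of a factor.

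Among the subunits whose yeast counterparts bind ATP tightly, CCT2 (chr12:69585459-69601570) gave rlog values of 9.01, 9.18 and 9.07 in INA6 knockdown libraries and 8.79, 8.74 and 8.80 in INA6 controls. In JJN3 it gave 8.38, 8.35 and 8.32 with knockdown and 8.07, 7.99 and 7.99 in controls. The groups stood apart in each line, by a difference of 0.31 (SE 0.0547) in INA6 and 0.34 (SE 0.0513) in JJN3. CCT4 (chr2:61868085-61888671) stood at 9.95, 9.97 and 9.83 with knockdown and at 9.64, 9.54 and 9.61 in controls of INA6. In JJN3 its values were 8.84, 8.87 and 8.73 with knockdown and 8.57, 8.63 and 8.59 in controls. Knockdown replicate 3 was the lowest knockdown library for CCT4 in each line, and in JJN3 it lay only 0.102 above the highest control, with differences of 0.32 (SE 0.0504) in INA6 and 0.22 (SE 0.0501) in JJN3. CCT5, in which an inherited change is known to cause a sensory neuropathy, lies at chr5:10249921-10266412 and gave 11.11, 11.16 and 11.11 with knockdown against 10.74, 10.69 and 10.68 in INA6 controls. Its JJN3 values were 11.16, 11.13 and 11.12 with knockdown and 10.86, 10.88 and 10.91 in controls. The libraries of a group lay close together for CCT5 (SD 0.0219 to 0.0349), and the difference was 0.42 (SE 0.0428) in INA6 and 0.25 (SE 0.0394) in JJN3.

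Of the subunits whose yeast counterparts bind ATP weakly, CCT3 (chr1:156308968-156338292) had the highest difference of the 8 in each line with the deposited scaling and all libraries. In INA6 TCP1 was highest with quantile normalisation, without knockdown replicate 1 or without control replicate 3, and CCT5 without knockdown replicate 2 or 3. In JJN3 CCT2 was highest with quantile normalisation, and CCT6A without knockdown replicate 3 or without control replicate 1. CCT3 stood at 11.72, 11.84 and 11.78 with knockdown and 11.39, 11.36 and 11.32 in controls of INA6. In JJN3 CCT3 stood at 11.80, 11.90 and 11.94 with knockdown and 11.43, 11.50 and 11.55 in controls. The differences of CCT3 were 0.42 (SE 0.0434) in INA6 and 0.38 (SE 0.0424) in JJN3. A higher difference than that of CCT3 was found for 2.11% of all tested INA6 genes and 2.64% of JJN3 genes. For the lowest member the share was 13.8% in INA6 (CCT8) and 19.7% in JJN3 (TCP1). This contrast chose the members, so nothing is read from these shares. CCT6A (chr7:56051765-56063989) gave 11.81, 11.85 and 11.79 with knockdown and 11.44, 11.36 and 11.43 in controls of INA6. Its JJN3 values were 11.39, 11.40 and 11.36 with knockdown and 11.04, 10.97 and 11.05 in controls. Knockdown libraries of CCT6A differed little from one another (SD 0.0253 in INA6 and 0.0243 in JJN3), and its difference was 0.41 (SE 0.0414) in INA6 and 0.36 (SE 0.0399) in JJN3. CCT8 (chr21:29056326-29073648) had 10.89, 10.93 and 10.92 with knockdown and 10.65, 10.69 and 10.74 in controls of INA6. In JJN3 it had 10.43, 10.38 and 10.35 with knockdown and 10.22, 10.16 and 10.17 in controls. CCT8 stood near the bottom of the family in each line, at 0.22 (SE 0.0433) in INA6 and 0.20 (SE 0.0420) in JJN3.

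TCP1, the founding subunit that gave the complex its other name, lies at chr6:159778498-159789602 and was the gene whose 2 differences were farthest apart. Its INA6 values were 9.79, 9.92 and 9.92 with knockdown and 9.44, 9.47 and 9.47 in controls. In JJN3 they were 10.27, 10.23 and 10.22 with knockdown and 10.08, 10.10 and 10.10 in controls. The difference was 0.42 (SE 0.0499) in INA6, among the 4 highest of the family, and 0.15 (SE 0.0413) in JJN3, the lowest. CCT7 (chr2:73234308-73253005) gave 11.48, 11.61 and 11.59 with knockdown and 11.32, 11.27 and 11.26 in controls of INA6. Its JJN3 values were 10.20, 10.24 and 10.35 with knockdown and 9.94, 9.92 and 9.92 in controls. The difference of CCT7 was 0.28 (SE 0.0446) in INA6 and 0.34 (SE 0.0441) in JJN3, and its knockdown libraries spread more (SD 0.0708 and 0.0753) than its controls (SD 0.0348 and 0.0106).

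**Figure D1:**
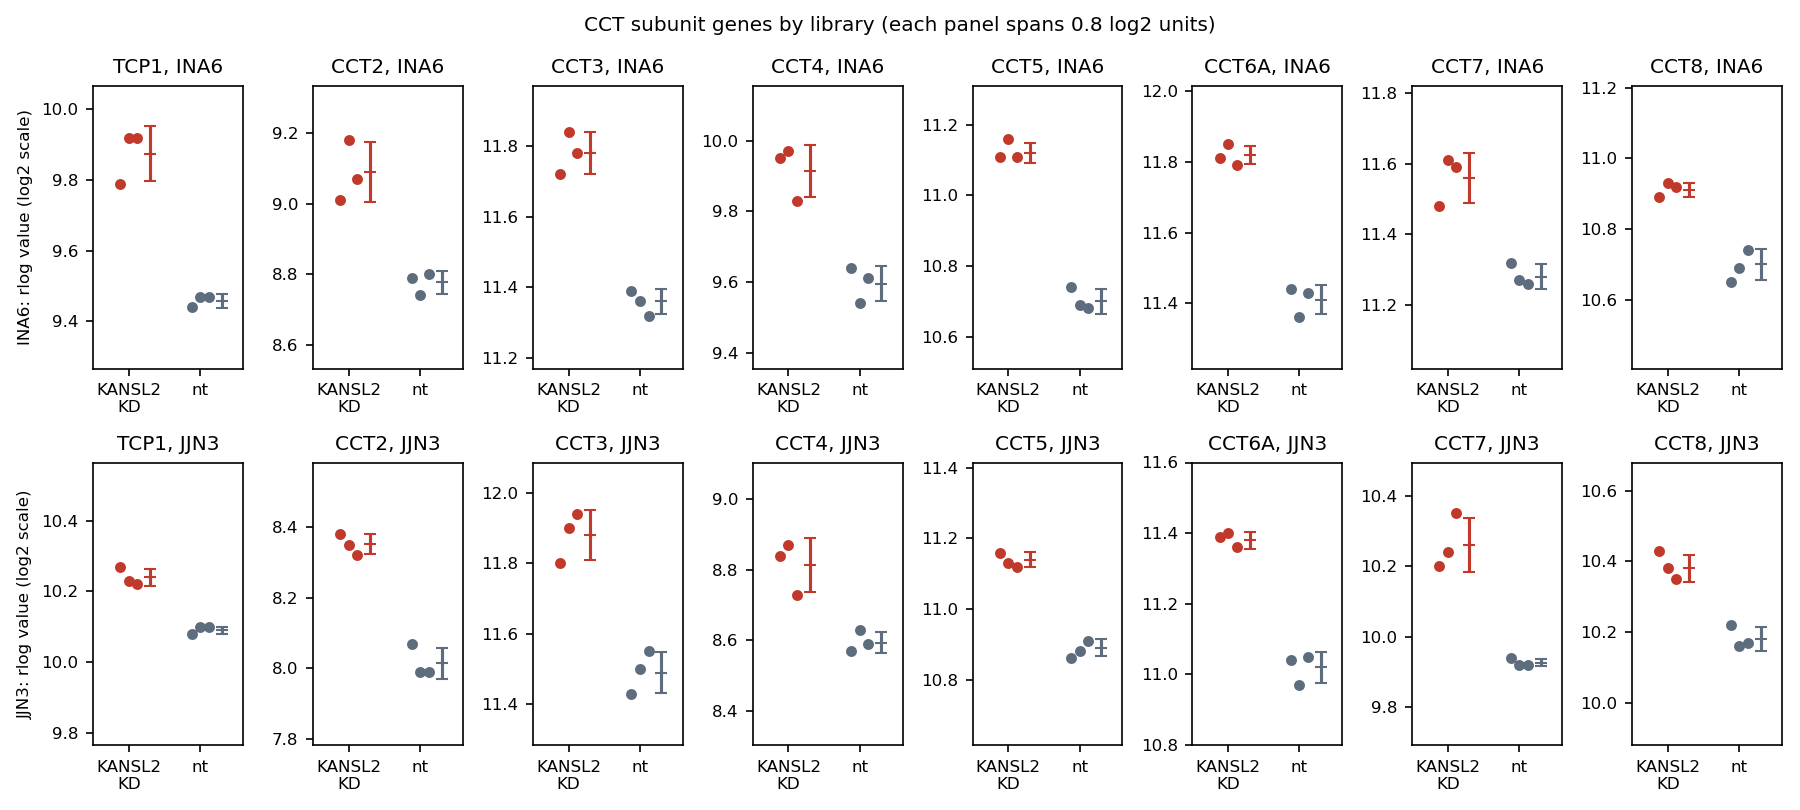
Rlog values (log2 scale, vertical axis) of the 8 CCT genes in each library of INA6 (top) and JJN3 (bottom), with knockdown on the left and control on the right of each panel. Points are libraries, bars the mean ± SD of 3, and each panel spans 0.8 log2 units; in all 16 panels the knockdown points lie above the control points.

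Within a line the measured differences varied from subunit to subunit, and whether the subunits differ beyond the scatter of the libraries was not tested. In INA6 the order was CCT3, CCT5, TCP1 and CCT6A (all 0.41 to 0.42), then CCT4, CCT2, CCT7 and CCT8. In JJN3 it was CCT3, CCT6A, CCT2, CCT7, CCT5, CCT4, CCT8 and TCP1. Of all 28 pairs of subunits, 10 in INA6 and 10 in JJN3 had differences within 1 standard error of each other. The errors of a pair were combined as if independent, though the genes share libraries, and 1 standard error is no criterion of separation. The orders are therefore a description, and neighbours in them are not taken as separated. The SD over the 8 differences was 0.0794 in INA6 and 0.0861 in JJN3, beside a mean standard error of 0.0463 and 0.0438. Levels are not compared between genes, since the values are not scaled to transcript length, nor between lines, since each table was normalised separately.

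Set side by side, 6 of the 8 genes had the higher difference in INA6 and 6 of the 8 had differences less than 1.5 standard errors apart between the lines. The exceptions to the second count were TCP1, with an INA6-minus-JJN3 gap of 0.27 (SE 0.0648), and CCT5, with 0.17 (SE 0.0582). CCT2 and CCT7 were the genes with the higher difference in JJN3, by gaps of −0.03 (SE 0.0750) and −0.06 (SE 0.0627). These gaps come from the contrasts that chose the genes and were not tested. With quantile normalisation the JJN3 differences were 0.08 for TCP1, 0.16 for CCT5 and 0.13 for CCT8, each more than 1.5 times lower than with the deposited scaling.

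**Figure D2:**
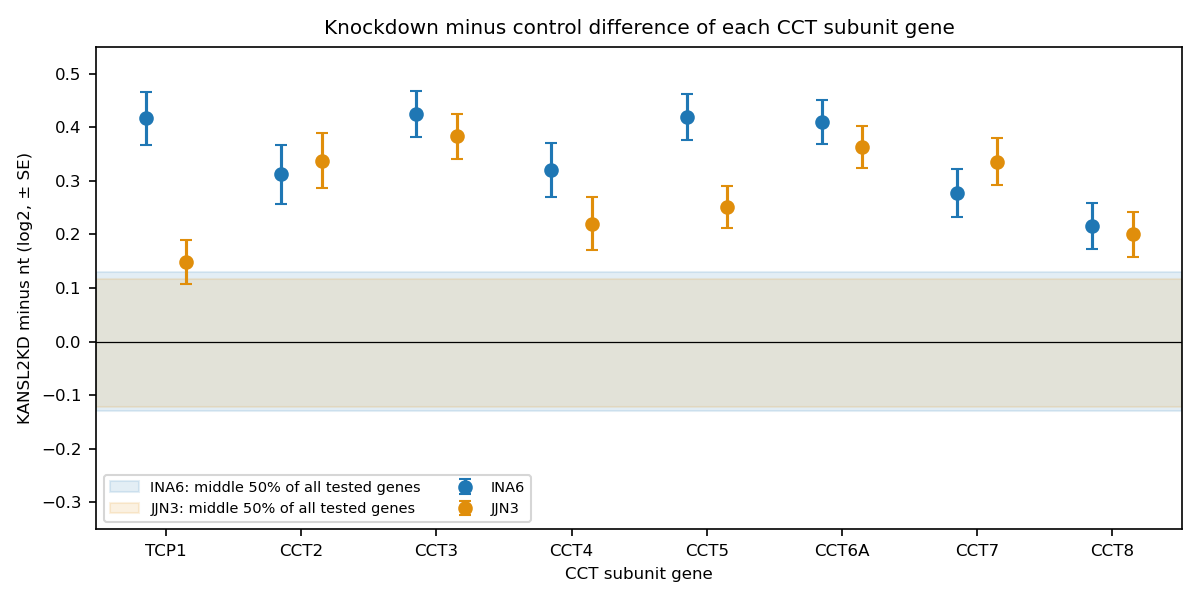
Knockdown-minus-control difference (log2, vertical axis) of each CCT gene in INA6 and JJN3, with bars of ± SE, over bands that hold the middle 50% of all tested genes of each line. All 16 points lie above the bands, and TCP1 shows the widest gap between the lines, 0.42 in INA6 and 0.15 in JJN3.

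The genes also varied from library to library inside a group. In INA6, knockdown replicate 2 was the highest knockdown library for 7 of 8 genes, with a mean deviation of 0.05 from the group mean, and replicate 1 was the lowest for 5. In JJN3, knockdown replicate 3 was the lowest for 6 of 8 and the highest for the other two, CCT3 and CCT7. Mean deviations of the 8 genes lay between −0.04 and 0.05 in INA6 libraries and between −0.01 and 0.01 in JJN3 libraries. The smallest gap between a lowest knockdown and a highest control library was 0.147 in INA6 (CCT8) and 0.102 in JJN3 (CCT4).

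**Figure D3:**
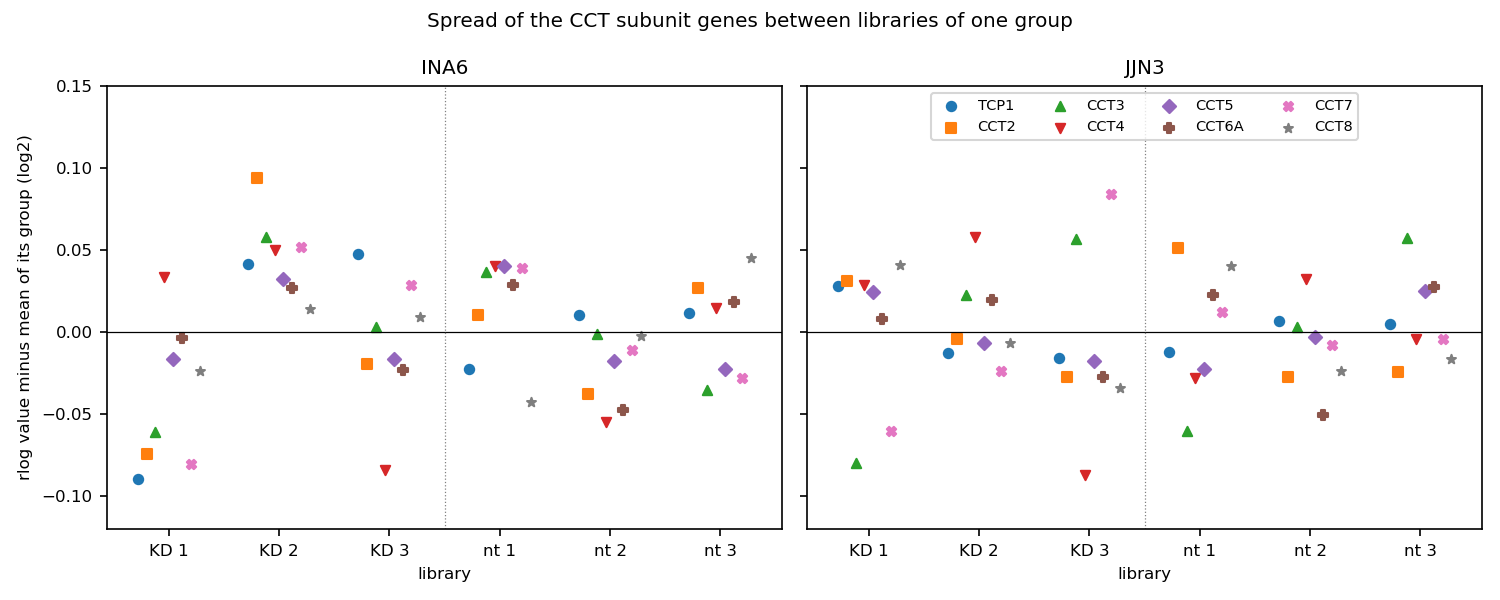
Deviation of each CCT gene's rlog value from the mean of its group (log2, vertical axis) in the 6 libraries of INA6 and of JJN3, knockdown (KD) left and control (nt) right of the dotted line. In INA6 KD 2 all 8 genes lie above 0, and in JJN3 KD 3 CCT3 and CCT7 lie above 0 while the other 6 lie below.

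Near-identical copies and overlapping genes limit these values. RefSeq lists 20 pseudogenes and close relatives of the CCT genes, of which 4 are in the tables. CCT6P1, a transcribed pseudogene of CCT6A, rose by 0.22 (SE 0.0688, limma adjusted p = 0.0108) in INA6 and by 0.21 (SE 0.0557, limma adjusted p = 0.00259) in JJN3, and CCT6P3 was at 0.03 (adjusted p = 0.606) and 0.01 (adjusted p = 0.756, limma in each line). Reads of CCT6A and its pseudogenes could be split by the counting, so these values are uncertain. CCT6B, the paralogue known mainly from testis, stayed below the minimum with values from 1.32 to 1.37 in INA6 and 2.65 to 2.76 in JJN3, and CCT8L2 was listed at 0 in all 12 libraries. The sources used here do not say whether counting used strand, so TCP1 reads cannot be told from those of the overlapping ACAT2, CCT3 reads from TSACC, or CCT4 reads from COMMD1.

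Genes that overlap a CCT gene, or start beside one on the opposite strand, were tested as well. TSACC, COMMD1 and ACAT2 overlap a CCT gene, so their values may hold its reads and are not a separate readout. MRPL18, a mitochondrial ribosomal protein gene whose start lies 210 bases from that of TCP1, rose by 0.22 in INA6 (9.17 ± 0.0287 with knockdown, 8.94 ± 0.0758 in controls, SD, n = 3 each; limma adjusted p = 0.00145). In JJN3 it was at 0.13 (9.09 ± 0.0434 with knockdown, 8.95 ± 0.0559 in controls, SD, n = 3 each; limma adjusted p = 0.0197). The JJN3 call of MRPL18 failed under quantile normalisation, at a limma adjusted p of 0.0635. It also failed when knockdown replicate 2 (0.0994), control replicate 1 (0.110) or control replicate 2 (0.0592) was left out. COMMD1, which starts 54 bases from CCT4, was at 0.09 in INA6 (adjusted p = 0.228) and 0.03 in JJN3 (adjusted p = 0.728, limma). TSACC, a co-chaperone gene starting 234 bases from CCT3, was at 0.13 in INA6 (limma adjusted p = 0.0577) and not tested in JJN3. The overlapping ACAT2, of cholesterol metabolism, was at 0.12 in INA6 (adjusted p = 0.114) and 0.04 in JJN3 (adjusted p = 0.521, limma). ACAT2 passed in INA6 with median centring (limma adjusted p = 0.0393) and with quantile normalisation (0.0126). TSACC passed in INA6 under both of these, and also without knockdown replicate 1 (0.0331), knockdown replicate 3 (0.0109) or control replicate 1 (0.0465) and with the replicate number as a block (0.0394, limma).

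The other parts of the folding pathway were tested with limma over all genes, at a Benjamini-Hochberg adjusted p below 0.05. Over all tested genes 24.7% were called higher and 24.0% lower with knockdown in INA6, and 25.5% higher and 25.5% lower in JJN3. The counts of each list below are to be read beside these shares. All 11 lists were chosen with earlier results of these data known, so their counts are a description and no independent support. With the deposited scaling 3084 INA6 genes were higher and 3000 lower, and 3135 JJN3 genes were higher and 3129 lower. With each library centred on its median the split was 3904 higher and 2400 lower in INA6, and 3768 higher and 2571 lower in JJN3. Prefoldin, which hands unfolded actin and tubulin to CCT, had few calls. Of 5 tested prefoldin genes 0 were called in INA6 by limma, with 1 at an unadjusted p below 0.05 and a median of 0.07. In JJN3 0 were called higher and 1 lower, with a median of −0.02. PFDN1 fell by 0.23 in JJN3 (9.62 ± 0.0339 with knockdown, 9.85 ± 0.0581 in controls, SD, n = 3 each; limma adjusted p = 8.21e-05). PFDN6 was below the minimum in each line and listed at 0 in all JJN3 libraries, so like EIF4A1 it cannot be called silent. With median centring, or without knockdown replicate 3 of a line, 1 prefoldin gene was called higher in that line, and in INA6 likewise without control replicate 1. In INA6 1 was also called higher with a minimum mean of 5. A second JJN3 gene was called lower with no trend or without control replicate 3.

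Single cofactors of CCT were called in both directions. PDCL, a phosducin-like protein that works with CCT on G protein beta subunits, fell by 0.23 in INA6 (SE 0.0595, limma adjusted p = 0.0028) and by 0.44 in JJN3 (SE 0.0559, limma adjusted p = 1.56e-07). PDCD5, a CCT-binding protein, rose by 0.31 in INA6 (limma adjusted p = 0.000326) and was at 0.09 in JJN3. Of 4 tested genes of this list, 2 rose and 1 fell in INA6 and 1 rose and 1 fell in JJN3. The JJN3 counts are near the shares over all tested genes there, 25.5% higher and 25.5% lower. Nothing is read from the counts of so small a list. The rise of TXNDC9, the other gene called higher, was lost in INA6 with the replicate number as a block (limma adjusted p = 0.0735) and with no filter (0.0522). It was also lost in INA6 when any 1 library except knockdown replicate 3 was left out (limma adjusted p 0.0506 to 0.154). In JJN3 it was lost without knockdown replicate 2 (0.157), control replicate 1 (0.120) or control replicate 2 (0.0934), and with quantile normalisation 2 genes of the list rose in JJN3. Of the 7 R2TP and prefoldin-like genes, which assemble large complexes together with HSP90, 3 rose and 1 fell in INA6 and 1 rose in JJN3. In INA6 only 1 rose with no filter or without knockdown replicate 2 or control replicate 2. With the replicate number as a block 2 rose in INA6, the call of RPAP3, a subunit of R2TP, being lost (limma adjusted p = 0.0647). In JJN3 2 rose with median centring or without control replicate 3. PDRG1 rose by 0.33 and URI1 fell by 0.18 in INA6 (limma adjusted p = 5.04e-05 and 0.00391), and the helicase-like RUVBL1 rose by 0.22 in JJN3 (limma adjusted p = 0.00031).

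The actin and tubulin clients of CCT differed between the lines. Of 12 tested actin and tubulin genes 5 rose and 0 fell in INA6, with a median of 0.09. There the cytoplasmic actins ACTG1 and ACTB rose by 0.54 (14.9 ± 0.0222 with knockdown, 14.4 ± 0.0245 in controls) and 0.31 (15.7 ± 0.0171 and 15.4 ± 0.0252; SD, n = 3 each; limma adjusted p = 3.99e-10 and 8.82e-07). In JJN3 ACTG1 and ACTB stood at −0.02 and 0.08, and neither was called. Of 13 tested genes there 6 rose and 1 fell, with a median of 0.11. With quantile normalisation 2 fell in JJN3, and without control replicate 2 1 fell in INA6. Over the alternatives 4 to 7 rose in INA6 and 4 to 8 in JJN3. The JJN3 rises of the alpha tubulins TUBA1C and TUBA4A were lost with quantile normalisation (limma adjusted p = 0.524 and 0.582). The INA6 rise of TUBA1B was lost under several alternatives, such as no trend (limma adjusted p = 0.083) and the replicate block (0.069). The beta tubulins TUBB2A and TUBB4B rose by 0.46 and 0.30 and TUBB4A fell by 0.56 in JJN3 (limma adjusted p = 4.84e-08, 2.93e-07 and 5e-09). For 8 of the 12 genes tested in both lines the change differed between the lines (adjusted p below 0.05), 5 being higher in INA6 and 3 in JJN3, where 30.0% of 11137 genes differed. Some of these 8 had low values in 1 line, such as TUBB4A (mean 3.38 in INA6) and TUBB3 (4.97 in JJN3). Rlog understates differences at such levels.

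Among the other reported clients, CDC20, which activates the anaphase-promoting complex, rose by 0.40 in INA6 (11.3 ± 0.0410 with knockdown, 10.9 ± 0.0271 in controls, SD, n = 3 each; limma adjusted p = 1.85e-07) and was at −0.08 in JJN3. Of 15 such genes 6 rose and 2 fell in INA6 (median 0.08), and 2 rose and 1 fell in JJN3 (median 0.02). With quantile normalisation 1 rose and 3 fell in JJN3. There 0 rose without knockdown replicate 3 or control replicate 1, and 1 rose with no filter, with no trend or without knockdown replicate 2, control replicate 2 or control replicate 3. The G protein subunit GNB2 fell by 0.20 and the phosphatase subunit PPP2R2A rose by 0.21 in INA6 (limma adjusted p = 0.00121 and 0.00066). STRN, a striatin, fell by 0.19 in INA6 and by 0.19 in JJN3 (limma adjusted p = 0.00633 and 0.003). Of the 6 tubulin folding cofactors, which take tubulin on from CCT, 2 rose and 1 fell in INA6 and 1 rose and 1 fell in JJN3. The JJN3 rise was lost with no filter or without knockdown replicate 2, control replicate 1 or control replicate 3. ARL2, a small GTPase that works with them, fell in each line, by 0.30 in INA6 and 0.40 in JJN3 (limma adjusted p = 0.000226 and 4.53e-06).

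Most tested genes of the cytosolic HSP70 system, which hands clients to CCT, rose, in a list chosen with earlier results known. Of 14 tested genes of the cytosolic HSP70 system 10 rose and 0 fell in INA6, with a median of 0.25, and in JJN3 9 of 13 rose and 0 fell, with a median of 0.18. HSPH1, a nucleotide exchange factor for HSP70, averaged 9.64 ± 0.0865 with knockdown and 8.85 ± 0.0507 in controls of INA6 (SD, n = 3 each), a rise of 0.79 (limma adjusted p = 3.73e-10). In JJN3 it averaged 9.72 ± 0.0747 with knockdown and 9.36 ± 0.0120 in controls (SD, n = 3 each), a rise of 0.37 (limma adjusted p = 1.04e-07). The HSP70 gene HSPA8 rose by 0.59 in INA6 and 0.38 in JJN3, the co-chaperone DNAJA1 by 0.60 and 0.49, and DNAJB6 by 0.58 and 0.44 (limma adjusted p at most 3.31e-08). DNAJB1, another co-chaperone of the list, was at −0.04 in INA6 and −0.0003 in JJN3 and was called in neither. HSPA1A, a further HSP70 gene, was below the minimum in each line. Its near-identical copy HSPA1B averaged 3.31 in knockdown and 3.31 in control libraries of INA6 and was below the minimum in JJN3. BAG3, a further gene of this list, was at −0.02 in INA6 and rose by 0.18 in JJN3 (limma adjusted p = 0.0119). That JJN3 call was lost without knockdown replicate 2 (0.0653), knockdown replicate 3 (0.0566) or control replicate 2 (0.134). DNAJB1, BAG3 and the INA6 value of HSPA1B were added after their values were seen, and they do not stand for the rest of the list. Which genes of the list respond to heat in these lines was not tested. Reads of HSPA1A and HSPA1B could be split between them or lost in counting, which was not tested. HSPA1A was listed at 0 in all JJN3 libraries, as EIF4A1 was, so neither copy can be called silent or unchanged.

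Most genes of the HSP90 list and all of the mitochondrial chaperone list rose, and these lists too were chosen with earlier results known. Of 12 cytosolic HSP90 genes 8 rose and 1 fell in INA6 (median 0.28, with 0 falling under median centring or without knockdown replicate 2, control replicate 1 or control replicate 3), and 9 rose and 0 fell in JJN3 (median 0.17). HSP90AA1 rose by 0.48 in INA6 and 0.40 in JJN3, the ATPase activator AHSA1 by 0.51 and 0.31, and STIP1, which links HSP70 to HSP90, by 0.36 and 0.38 (limma adjusted p at most 5.65e-06). All 5 genes of the mitochondrial chaperonin and HSP70 list rose in each line, with medians of 0.30 in INA6 and 0.19 in JJN3. HSPD1, the ring-forming relative of CCT in mitochondria, rose by 0.56 in INA6 and 0.28 in JJN3, and HSPA9 by 0.47 and 0.32 (limma adjusted p at most 3.37e-06). TRAP1 was called in JJN3 at 0.15 (limma adjusted p = 0.0142), and TRAP1 was not called there without knockdown replicate 3 (0.0695) or control replicate 1 (0.111). HSPE1, the co-chaperonin of HSPD1, was not called in JJN3 without knockdown replicate 1 (limma adjusted p = 0.0710) or control replicate 2 (0.0684), so 4 of the 5 genes were called there when any 1 of these 4 libraries was left out. HSPE1 is named after its values were seen. The heat shock factor list held HSF1, HSF2, HSF4 and HSBP1, the last being no factor itself. Of these 4 genes 0 were called in INA6 by limma, with 0 at an unadjusted p below 0.05. In JJN3 0 rose and 2 fell, HSF4 by 0.54 (limma adjusted p = 3.48e-08). With median centring 1 gene of the list was called higher and 1 lower in JJN3, and with quantile normalisation 0 higher and 1 lower. The other gene, HSBP1, which binds HSF1, was not called in JJN3 under either scaling (limma adjusted p = 0.0804 and 0.0512), nor without knockdown replicate 2 (0.132), knockdown replicate 3 (0.0722), control replicate 1 (0.108) or control replicate 3 (0.0779). In INA6 1 gene of the list was called higher without knockdown replicate 1.

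**Figure D4:**
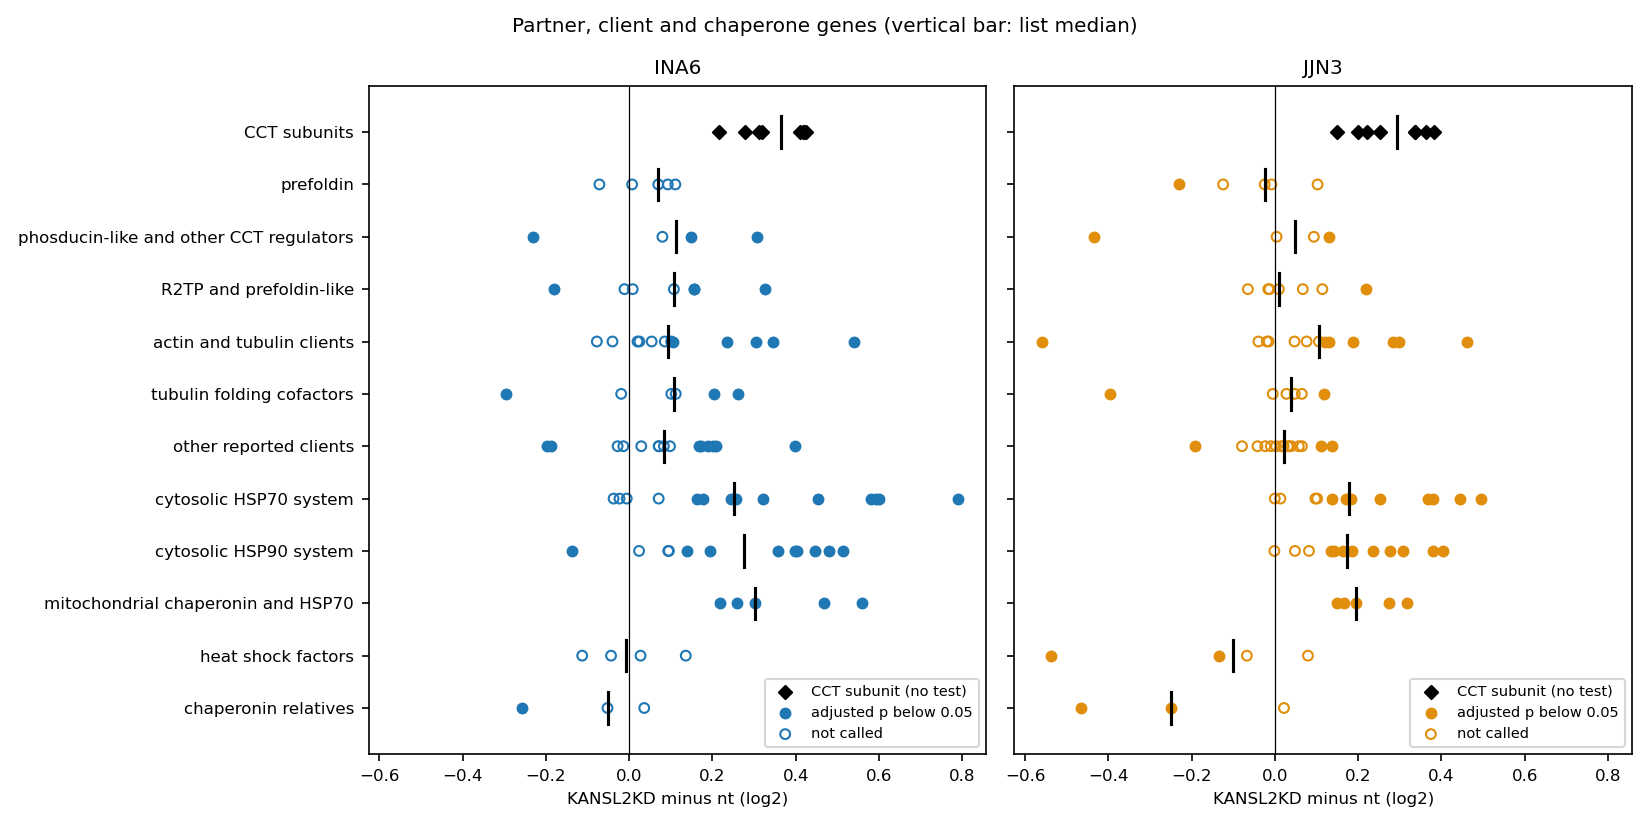
Knockdown-minus-control difference (log2, horizontal axis) of every tested gene of the 11 partner lists in INA6 and JJN3, below the 8 CCT genes. Filled circles passed an adjusted p below 0.05, open circles did not, and bars are list medians; the HSP70, HSP90 and mitochondrial lists have medians from 0.17 to 0.30, and the prefoldin medians are 0.07 in INA6 and −0.02 in JJN3.

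The chaperonin-like proteins of the BBS group, which help to assemble the ciliary BBSome and share ancestry with CCT, did not rise. BBS12 fell by 0.26 in INA6 (SE 0.0466, limma adjusted p = 0.000116) and by 0.25 in JJN3 (SE 0.0528, limma adjusted p = 0.000215). BBS10 was at −0.05 in INA6 and fell by 0.47 in JJN3 (limma adjusted p = 5.47e-08). MKKS was at 0.04 in INA6 and 0.02 in JJN3 and was called in neither.

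The genes whose 12 library values were most like the mean of the CCT genes, after each gene's mean in a line was subtracted, were found among 11129 genes tested in both lines. They were CHERP, SEH1L, DNMT1, RAN and RBM25, with root mean square differences of 0.0255, 0.0282, 0.0287, 0.0298 and 0.0305 log2 units. The median over all those genes was 0.173. The CCT genes themselves lay between 0.0318 (CCT5) and 0.0632 (CCT8) from their own mean. DNMT1, a maintenance DNA methyltransferase, had differences of 0.37 in INA6 and 0.29 in JJN3, and RAN, the GTPase of nuclear transport, 0.32 and 0.22. These 5 genes were picked by likeness, so their differences are a description.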

How the data were processed

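Messenger RNA of INA6 and JJN3 cells was profiled in 12 libraries, whose titles give the groups. The labels' protocols describe capture on poly-T beads and cDNA made with random hexamers. Build hg38 and the tools DESeq2, HTSeq, Bowtie2 and Trim Galore are named, per the submitters' processing notes. Versions, settings, annotation and strand are not given in the sources used here. For each line the authors deposited a table of rlog values, a log2 scale made by DESeq2. Rlog pulls values with few reads behind them to the average of their gene, which understates differences of weakly expressed genes. The tables hold no counts, so no counting interval was computed.

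Each line was fitted on its own, keeping genes whose 6 values averaged at least 3, with limma 3.58.1 in R 4.3.3 (lmFit, eBayes with a trend), and p-values, all two-sided, were Benjamini-Hochberg adjusted over all genes tested. Lines were compared by the difference of the 2 differences over its standard error, adjusted over 11137 genes. The fits were tested on simulated data. An exact permutation test of 1 gene with 3 against 3 libraries cannot go below 0.1, so none was used. Named are the 8 genes, KANSL2, up to 4 called genes with the smallest p per partner list and line, genes overlapping or starting within 1000 bases of a member, chaperonin relatives and the 5 most alike profiles. DNAJB1, BAG3, HSPE1 and the INA6 value of HSPA1B were added to these. The members and all 11 partner lists were chosen with earlier results of these data known. RefSeq coordinates and start regions are from GRCh38.p14, the same build as hg38. Alternatives covered the filter, median centring, quantile normalisation, the trend, a replicate block and leaving out each library. The accessibility libraries were not used here.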

Additional observations from a re-analysis of the deposited data

Results flagged for a closer look

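Of 52 named genes outside the CCT family that were tested in both lines, 24 changed differently in INA6 and JJN3 (difference of the 2 changes, adjusted p below 0.05). Most of the 52 were named because they had the smallest p of their list in one line or the other, which itself favours a difference between lines, so this share is not to be set against that of all genes. KANSL2 itself is among them, at 0.82 (INA6 −0.39, JJN3 −1.21), so the depth of knockdown also differed between the lines, and its part in the other differences was not tested. Among chaperones the INA6-minus-JJN3 value was 0.42 for HSPH1 (0.79 in INA6, 0.37 in JJN3), 0.21 for HSPA8, 0.21 for HSP90AB1, 0.20 for AHSA1, 0.29 for HSPD1 and 0.15 for HSPA9. Among clients it was 0.56 for ACTG1 (0.54 in INA6, −0.02 in JJN3), 0.23 for ACTB, 0.48 for CDC20, 0.24 for TUBB3, 0.48 for TUBB4A and 0.17 for STRN4. It was negative for TUBB4B (−0.24), TUBG1 (−0.18) and GNB2 (−0.20). The TUBB4A value comes from −0.08 in INA6, not called, and −0.56 in JJN3. TUBB4A averaged 3.38 in INA6, near the minimum of 3, and TUBB3 averaged 4.97 in JJN3. Rlog understates differences at low levels, and its part in these values was not tested. Among cofactors and relatives the INA6-minus-JJN3 value was 0.21 for PDCD5, 0.21 for PDRG1, 0.24 for PFDN1, 0.22 for RPAP3 and 0.23 for TBCB. It was 0.43 for HSF4 (−0.11 in INA6, −0.54 in JJN3), 0.41 for BBS10 (−0.05 in INA6, −0.47 in JJN3) and −0.25 for URI1. The adjusted p of these 24 ranged from 2.53e-12 (ACTG1) to 0.0486 (RPAP3 and PDCD5).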

How the results depend on the processing

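The median difference of the CCT genes moved with the scaling. With median centring it was 0.40 in INA6 and 0.32 in JJN3, and with quantile normalisation 0.32 in INA6 and 0.24 in JJN3. Leaving out 1 library at a time gave 0.34 to 0.38 in INA6 and 0.28 to 0.30 in JJN3. Single CCT genes ranged over 0.16 to 0.46 in INA6 and 0.08 to 0.42 in JJN3 across the 12 alternatives of each line. Called genes numbered 6084 in INA6 and 6264 in JJN3. Leaving out 1 library gave 5034 to 6093 and 5332 to 6078, and no alternative moved these 2 counts by over 1.5 times. Leaving out 1 library gave 2723 to 3434 genes differing between lines, against 3342 with all, and neither the other scalings, the minimum of 5 nor the block moved that count by over 1.5 times. It was not computed without the filter or the trend. With the replicate number as a block 5626 genes were called in INA6, 6205 in JJN3 and 2976 between lines. Same-numbered libraries did not deviate together (correlations −0.296 to −0.068 in INA6, −0.014 to 0.005 in JJN3), so the numbers were not taken as pairs. Libraries with different numbers correlated at −0.069 to 0.24 in INA6 and −0.056 to 0.064 in JJN3. The highest was that of INA6 knockdown replicate 1 with control replicate 3, and a structure shared between the groups was not tested. The named genes held 38 calls in INA6 and 36 in JJN3. Of these, 3 in INA6 (RPAP3, RUVBL1, TXNDC9) and 7 in JJN3 (CCNE1, HSBP1, MLST8, MRPL18, TBCE, TRAP1, TXNDC9) failed under at least 1 alternative, with 0 reversed. This tally leaves out CCT6P1 and the genes added beyond the naming rule. Of those added genes, HSPE1 and BAG3 also lost their JJN3 calls when certain single libraries were left out. HSP70 genes called higher numbered 9 to 10 in INA6 and 7 to 11 in JJN3 over the alternatives, HSP90 genes 7 to 9 and 6 to 9, and mitochondrial chaperones 5 and 4 to 5. Other lists moved more: cofactors called higher numbered 1 to 3 in INA6 and 0 to 2 in JJN3, and R2TP genes 1 to 4 in INA6. Actin and tubulin genes called higher numbered 4 to 7 in INA6 and 4 to 8 in JJN3. For other clients it was 4 to 9 in INA6 and 0 to 2 in JJN3, with 0 without JJN3 knockdown replicate 3 or control replicate 1. Depth is unknown, so what it limits could not be set.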
